A study of Mus musculus with 8 samples.

Results

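The retinoid X receptors and the receptors that pair with them were followed in mouse hematopoietic progenitors with and without *Pcgf1*: *Rxra*, *Rxrb* and *Rxrg*, the retinoic acid receptors *Rara*, *Rarb* and *Rarg*, and the further partners *Pparg*, *Vdr* and *Nr1h3*. These 9 genes were taken by symbol from the 23284 symbols of each of 2 deposited tables, and all 9 were found in both. PCGF1 is a subunit of a variant Polycomb repressive complex, PRC1.1, and the study asked which genes depend on it in progenitor cells. Poly(A) RNA of IdHPCs and of LMPPs was sequenced from 2 control and 2 *Pcgf1*-KO samples per cell type, giving 8 libraries. IdHPCs are progenitors grown from Lin-Sca-1+c-Kit+ bone marrow cells that carry Id3 and are kept on TSt-4 stromal cells with IL-7, SCF and Flt3L. LMPPs, lymphoid-primed multipotent progenitors, were isolated from bone marrow.

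All libraries were labelled with the strain B6CBAF1/J, a passage of 15-18 and growth on TSt-4 cells. Controls were Pcgf1 fl/fl and *Pcgf1*-KO libraries were Pcgf1 -/-, produced by ERT2-Cre with 4-OHT. For LMPPs the paper names ERT2-Cre for the *Pcgf1*-KO mice and not for the control mice, so that these groups also differed in Cre. LMPPs of both genotypes were cultured with 4-OHT for 4 days. The treatment of the control IdHPCs sequenced here was not stated, ethanol being named for control IdHPCs of another assay. The study used female mice aged 6 to 8 weeks, but the labels tie no library to an animal or a separate culture, so that p-values measure only the spread between these libraries.

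RXR proteins are the shared partners of many nuclear receptors: RAR, PPARG, VDR and LXR (of which NR1H3 is one form) bind DNA as pairs with an RXR. Without ligand such pairs can recruit corepressors, and ligands such as retinoic acid, fatty acid derivatives, vitamin D or oxysterols exchange these for coactivators. In blood-forming tissue, signaling through RARA promotes granulocyte maturation, whereas RARG is known from the maintenance of stem cells.

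The stretch before the first listed start of *Rxra* is shown for its CpGs, since PRC1.1 is known to bind CpG islands through its subunit KDM2B, and that of *Rarg* is shown beside it. Capitals mark each CpG in the 250 bases before the start (RefSeq, GRCm38.p6, 5′ to 3′ on the gene's strand), chr2:27676951-27677200 on the plus strand for *Rxra* and chr15:102257523-102257772 on the minus strand for *Rarg*.
Rxra: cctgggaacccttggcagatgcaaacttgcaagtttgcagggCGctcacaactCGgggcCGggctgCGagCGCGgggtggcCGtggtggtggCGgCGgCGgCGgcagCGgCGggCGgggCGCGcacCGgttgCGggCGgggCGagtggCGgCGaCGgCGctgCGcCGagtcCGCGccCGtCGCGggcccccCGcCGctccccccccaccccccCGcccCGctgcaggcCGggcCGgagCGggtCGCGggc
Rarg: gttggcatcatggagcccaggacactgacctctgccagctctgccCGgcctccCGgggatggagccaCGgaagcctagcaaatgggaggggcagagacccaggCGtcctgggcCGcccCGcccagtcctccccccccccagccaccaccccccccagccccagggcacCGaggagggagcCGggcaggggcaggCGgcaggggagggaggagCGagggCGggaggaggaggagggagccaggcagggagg
The *Rxra* stretch held 40 CpGs and the *Rarg* stretch 11. Of 32851 starts of all genes, 1.31% had at least 40 CpGs, and the median was 6. All 9 genes had starts in the RefSeq table, 19 in all, and the CpG counts of the others ranged from 1 at the second start of *Rxra* to 39 at the second start of *Rxrb*.

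The stretch before *Rarb* is shown because *Rarb* is the classic gene with a retinoic acid response element at its start, and its own level is one readout of RAR activity. Capitals mark a direct repeat with a spacing of 5 (DR5), searched as GNTCANNNNNNGNTCA on both strands, at chr14:16575477-16575726 on the minus strand.
Rarb: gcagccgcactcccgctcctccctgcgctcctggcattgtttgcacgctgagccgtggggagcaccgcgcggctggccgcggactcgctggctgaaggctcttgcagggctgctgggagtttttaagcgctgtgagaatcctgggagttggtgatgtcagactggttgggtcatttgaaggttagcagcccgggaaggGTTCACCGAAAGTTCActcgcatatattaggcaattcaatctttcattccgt
The match lay from 52 to 37 bases before the start, and 0.776% of all 32851 stretches held one. Among the 19 starts of the 9 genes no other DR5 was found. The repeats of spacing 1 (GNTCANNGNTCA), 3 (GNTCANNNNGNTCA) and 4 (GNTCANNNNNGNTCA), held by 1.01%, 0.548% and 0.697% of stretches, were found at 0, 1 and 0 of the 19 starts, the one being the third start of *Rara*. These letters describe the sequence only, and binding was not measured here.

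Each table gave CPM, read counts scaled to the library total, on exons, and the exons of a gene were summed, with 15722759 to 25302206 reads per IdHPC library and 9618849 to 12578784 per LMPP library. *Pcgf1* exons 2 to 7, the deleted part, had 193 and 173 reads in control IdHPCs and 15 and 15 in *Pcgf1*-KO IdHPCs. In LMPPs, they had 84 reads in the library labelled control 1, 0 in that labelled control 2, 76 in that labelled *Pcgf1*-KO 1 and 0 in that labelled *Pcgf1*-KO 2. The labels of the libraries labelled control 2 and *Pcgf1*-KO 1 thus went against these reads, and LMPPs were compared both by label and between the 2 libraries without and the 2 with such reads. The second comparison coincides with the replicate number, and the 2 cannot be told apart. The progenitor markers *Kit*, *Cd34*, *Flt3*, *Ptprc*, *Ly6a* and *Il7r* were above 3 reads in all 8 libraries. Summed CPM of 20 stromal markers, among them *Col1a1*, *Sparc* and *Cxcl12*, was 4469 and 3811 in control and 9077 and 6779 in *Pcgf1*-KO IdHPCs, with *Dcn* and *Lum* at 0. In such bulk libraries, fewer cells of a type and less RNA per cell cannot be told apart.

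**Figure D1:**
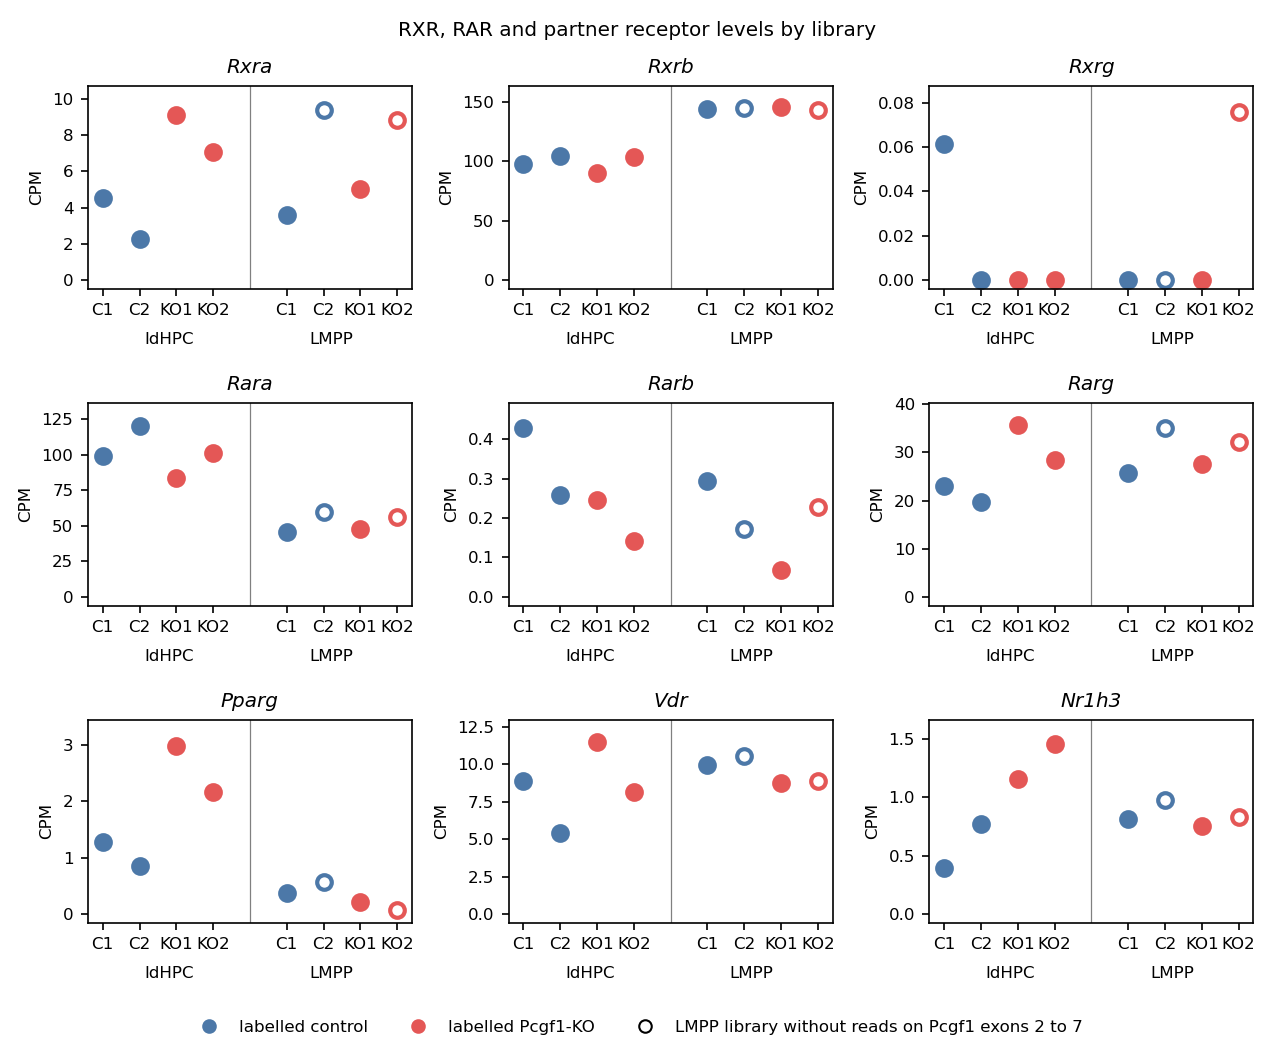
CPM of the 9 receptor genes in each library, with controls (C1, C2) and *Pcgf1*-KO (KO1, KO2) of IdHPCs on the left and LMPPs on the right of each panel, each on its own axis. Open circles are the LMPP libraries without reads on *Pcgf1* exons 2 to 7, in which *Rxra* stood at 9.38 and 8.86 CPM against 3.61 and 5.01 CPM in the others.

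*Rxrb* carried nearly all RXR transcript in both cell types. Per kb of exon, the mean level of *Rxrb* (mm9, chr17:34168757-34175338) was 26.8 CPM in IdHPCs and 39.0 CPM in LMPPs. *Rxra* (chr2:27531960-27618477) had means of 1.05 CPM per kb in IdHPCs and 1.23 CPM per kb in LMPPs. *Rxrg* (chr1:169528515-169569754), the form best known from muscle and brain, had 2 reads in 1 of 4 IdHPC libraries and 1 read in 1 of 4 LMPP libraries. It was thus within the 3 reads that a count of 0 allows, 0.086 to 0.227 CPM depending on the library. *Rxra* made up 3.03% and 1.45% of RXR transcript per kb in control and 6.37% and 4.41% in *Pcgf1*-KO IdHPCs. In LMPPs, its share was 1.67% and 2.27% in the libraries with and 4.20% and 4.02% in those without reads on *Pcgf1* exons 2 to 7.

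In both cell types the order of levels per kb began with *Rxrb*, *Rara*, *Rarg*, *Vdr* and *Rxra*. In IdHPCs the ranges over the 4 libraries of *Rxrb* (24.5 to 28.2 CPM per kb) and *Rara* (18.4 to 26.3) overlapped, as did those of *Vdr* (0.959 to 2.03), *Rxra* (0.414 to 1.67) and *Pparg* (0.433 to 1.5), and that of *Nr1h3* (0.158 to 0.580) reached into the last. In LMPPs, *Rxrb* (38.7 to 39.4 CPM per kb), *Rara* (9.93 to 13), *Rarg* (6.26 to 8.51) and *Vdr* (1.55 to 1.86) followed each other without overlap, and *Rxra* (0.661 to 1.72) overlapped with *Vdr*. *Nr1h3* (0.300 to 0.389) stood above *Pparg* (0.038 to 0.290) there. *Rarb* and *Rxrg* closed the order in both.

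**Figure D2:**
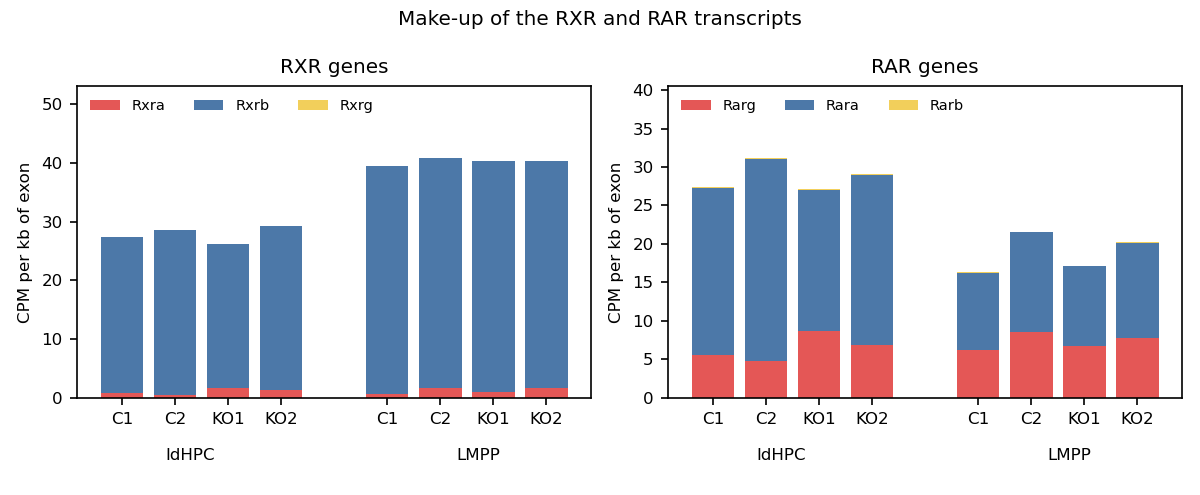
CPM per kb of exon of the 3 RXR genes (left) and the 3 RAR genes (right), stacked for each library of IdHPCs and LMPPs (C, labelled control; KO, labelled *Pcgf1*-KO). *Rxrb* fills at least 93.6% of each RXR bar, and *Rara* and *Rarg* together fill nearly all of each RAR bar.

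*Rxra*, the RXR gene with the largest difference, was higher in *Pcgf1*-KO IdHPCs and in the LMPP libraries without reads on *Pcgf1* exons 2 to 7, and the difference passed the test in LMPPs. In IdHPCs, *Rxra* was at 4.53 and 2.26 CPM in control and at 9.09 and 7.06 CPM in *Pcgf1*-KO libraries, from 79 to 259 reads. Both *Pcgf1*-KO libraries stood above both controls, with means of 8.08 ± 1.44 against 3.40 ± 1.60 CPM (SD, n = 2 each), a ratio of 2.38. On log2(CPM + 1), which understates the change of low genes, the difference was 1.09 ± 0.33 (SE), with an adjusted p = 0.158 by limma with Benjamini-Hochberg adjustment. It thus did not pass the threshold of 0.05, although 2.34% of the 12273 genes tested had a difference at least as large. Without control 2 it was 0.71, and without the exon at the 3′ end 0.61.

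In LMPPs, *Rxra* was at 3.61 and 5.01 CPM in the libraries with and at 9.38 and 8.86 CPM in the libraries without reads on *Pcgf1* exons 2 to 7. The groups did not overlap, and the spread within each (0.988 and 0.369 CPM, SD, n = 2) was small against the distance between the means of 4.31 and 9.12 CPM, a ratio of 2.11. The difference was 0.94 ± 0.17 (SE) on log2(CPM + 1), with an adjusted p = 0.00408 by limma with Benjamini-Hochberg adjustment. *Rxra* was called in 16 of 16 alternative settings, with differences of 0.75 to 1.13. By label the same 4 libraries gave 3.61 and 9.38 CPM for control and 5.01 and 8.86 CPM for *Pcgf1*-KO, which overlapped, with a difference of 0.15 (95% interval -0.95 to 1.25).

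Reads of *Rxra* were spread over its exons. Of its 10 exons, 8 to 10 had reads in each IdHPC library and 7 to 10 in each LMPP library, and the 3′ exon took 58.9% to 77.6% of the reads. Over the 9 exons before it, *Rxra* had 1.78 and 0.802 CPM in control and 2.91 and 1.98 CPM in *Pcgf1*-KO IdHPCs, a ratio of means of 1.90. The corresponding values in LMPPs were 0.811 and 1.99 CPM with and 3.86 and 3.56 CPM without reads on *Pcgf1* exons 2 to 7, a ratio of 2.65. The 3′ exon alone gave ratios of 2.67 in IdHPCs and 1.86 in LMPPs, and no group overlapped with the other in any of these 4 comparisons.

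**Figure D3:**
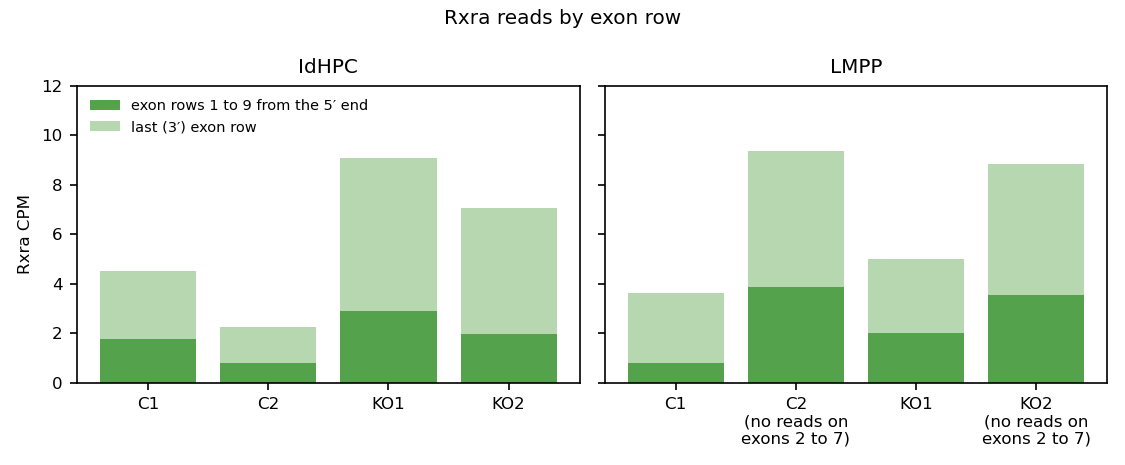
*Rxra* CPM in each library, split into the 9 exons from the 5′ end (dark) and the 3′ exon (light). In both cell types both parts of the bar are taller in the libraries with fewer reads on *Pcgf1* exons 2 to 7, as in control 2 and *Pcgf1*-KO 2 of the LMPPs with 3.86 and 3.56 CPM on the first 9 exons.

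*Rxrb*, the abundant form, had differences near 0. It was at 98.1 and 104.4 CPM in control and 90.5 and 103.5 CPM in *Pcgf1*-KO IdHPCs, and the groups overlapped. In LMPPs it was at 143.8 and 145.8 CPM with and 144.8 and 143.1 CPM without reads on *Pcgf1* exons 2 to 7. The differences on log2(CPM + 1) were -0.06 (95% interval -0.53 to 0.40) and -0.01 (-0.18 to 0.16), the latter turning to 0.01 under other scalings.

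**Figure D4:**
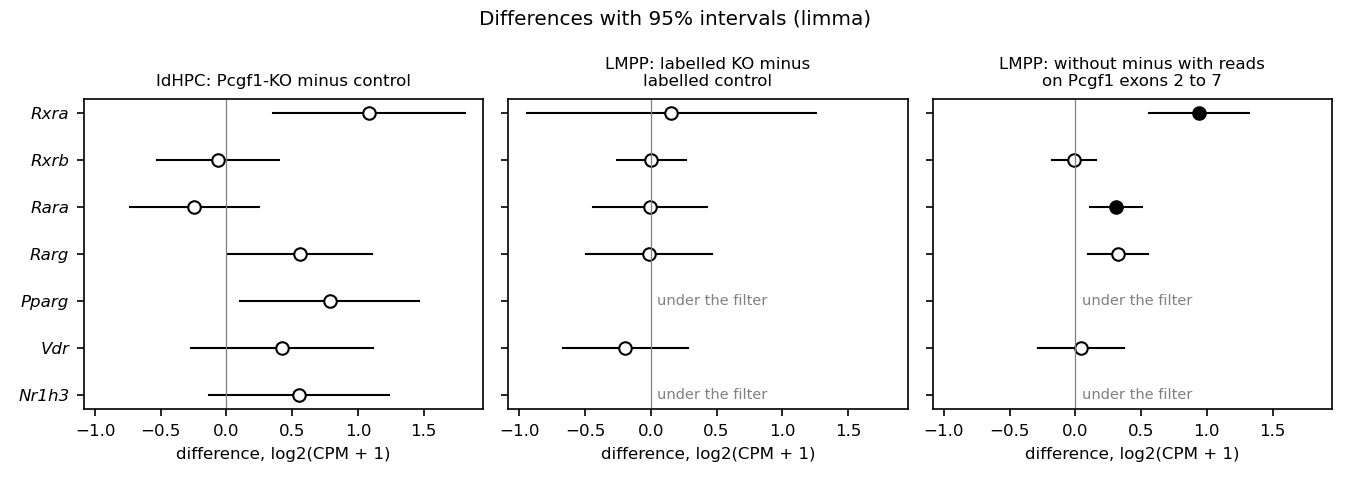
Differences on log2(CPM + 1) with 95% intervals from limma for the receptor genes that passed the filter on low values, in the 3 comparisons. Filled points passed the adjusted threshold of 0.05, which *Rxra* (0.94) and *Rara* (0.31) did in the LMPP comparison by reads on *Pcgf1* exons 2 to 7 and no gene did in the others.

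Among the retinoic acid receptors, *Rarg* was higher without overlap in *Pcgf1*-KO IdHPCs and in the LMPP libraries without reads on *Pcgf1* exons 2 to 7, and *Rara* in the latter. *Rarg* (chr15:102065369-102087948) was at 23.1 and 19.7 CPM in control and 35.8 and 28.4 CPM in *Pcgf1*-KO IdHPCs. Its ratio of means was 1.5, and the difference of 0.56 ± 0.25 (SE) had an adjusted p = 0.335 by limma with Benjamini-Hochberg adjustment. In LMPPs, *Rarg* was at 25.7 and 27.5 CPM with and 35.0 and 32.2 CPM without reads on *Pcgf1* exons 2 to 7. These groups did not overlap either, and the difference of 0.32 ± 0.10 (SE) had an adjusted p = 0.0580 by limma with Benjamini-Hochberg adjustment, so that it missed the threshold. It passed in 5 of 16 alternative settings, with differences of 0.26 to 0.38 over all 16.

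*Rara* (chr11:98789132-98836256) was at 99.3 and 120.3 CPM in control and 84.0 and 101.1 CPM in *Pcgf1*-KO IdHPCs, which overlapped. The difference was -0.24 (95% interval -0.74 to 0.25), but -0.11 without control 2 or *Pcgf1*-KO 1 and -0.38 without either of the others. In LMPPs it was at 45.4 and 47.6 CPM with and 59.6 and 56.4 CPM without reads on *Pcgf1* exons 2 to 7. There it was higher by 0.31 ± 0.09 (SE) without overlap, with an adjusted p = 0.0382 by limma with Benjamini-Hochberg adjustment. The call was lost in 8 of 16 alternative settings, each of the 4 left-out libraries among them, with differences of 0.27 to 0.35. By label, *Rara* and *Rarg* differed by -0.0050 (95% interval -0.44 to 0.43) and -0.01 (-0.49 to 0.47).

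The mix of RAR transcript per kb was steady in LMPPs and varied in IdHPCs. *Rarg* made up 38.5%, 39.4%, 39.1% and 38.7% of it in the 4 LMPP libraries, in the order control 1, control 2, *Pcgf1*-KO 1 and *Pcgf1*-KO 2 by label. In IdHPCs its share was 20.4% and 15.3% in control and 32.1% and 23.8% in *Pcgf1*-KO libraries, which did not overlap. *Rarb* (chr14:17263356-17651381), the gene with the DR5 shown above, was at 0.43 and 0.26 CPM in control and 0.25 and 0.14 CPM in *Pcgf1*-KO IdHPCs, and at 0.069 to 0.295 CPM in LMPPs. It had at most 14 reads in a library and was under the filter on low values.

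*Pparg*, *Nr1h3* and *Vdr*, the members outside the RXR and RAR families, were lower than *Rarg* per kb in both cell types. *Pparg* (chr6:115311239-115440419), a fatty acid sensor of fat cells and macrophages, was at 1.29 and 0.86 CPM in control and 2.98 and 2.16 CPM in *Pcgf1*-KO IdHPCs. These groups did not overlap, and the difference of 0.78 ± 0.31 (SE) had an adjusted p = 0.273 by limma with Benjamini-Hochberg adjustment. In LMPPs, *Pparg* was under the filter, with 1 to 10 reads a library. By label its controls stood at 0.37 and 0.58 CPM, above *Pcgf1*-KO at 0.21 and 0.08 CPM without overlap.

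*Nr1h3* (chr2:91024218-91042991), which encodes the oxysterol receptor LXRα, was at 0.40 and 0.77 CPM in control and 1.16 and 1.46 CPM in *Pcgf1*-KO IdHPCs. Its groups did not overlap, with a difference of 0.55 ± 0.31 (SE) and an adjusted p = 0.449 by limma with Benjamini-Hochberg adjustment. Gm13783 overlaps it, so that the assignment of its reads is uncertain. In LMPPs *Nr1h3* was at 0.75 to 0.98 CPM, under the filter. The other LXR gene, *Nr1h2*, is not among the 9 and had means of 66.8 CPM in IdHPCs and 100.2 CPM in LMPPs.

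*Vdr* (chr15:97684856-97741061), the vitamin D receptor, was at 8.91 and 5.42 CPM in control and 11.5 and 8.14 CPM in *Pcgf1*-KO IdHPCs, which overlapped, with a difference of 0.42 (95% interval -0.27 to 1.12). It was 0.11 without control 2, 0.20 without *Pcgf1*-KO 1 and 0.74 without control 1. In LMPPs it was at 9.95 and 8.78 CPM with and 10.5 and 8.86 CPM without reads on *Pcgf1* exons 2 to 7. Here too the groups overlapped, with a difference of 0.04 (95% interval -0.28 to 0.37).

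In all, 7 of the 9 receptor genes passed the filter in IdHPCs, 4 of them higher without overlap, against 25.6% of the 12273 genes tested, and none lower, against 21.3%. By limma 0 of 7 were called, against 0.53% of all genes tested (0.269% higher and 0.261% lower). At an unadjusted p under 0.05 were 3 of them, *Rxra*, *Pparg* and *Rarg*, all higher, against 9.17% of all genes higher and 5.33% lower. By exactTest of edgeR 0 were called, against 3.67% of all genes higher and 1.3% lower. The quasi-likelihood test of edgeR and DESeq2 also called 0 of them, against 124 and 497 of all 12273 genes. The median difference of these 7 receptor genes was 0.55, against 0.01 for all genes tested. In LMPPs by label, 5 passed the filter and 0 were called by limma, against 0% of the 12153 genes tested. None of the 5 had an unadjusted p under 0.05, against 0.0165% of all genes (2 genes). The tests of edgeR and DESeq2 called 0 of the 5, and 0 of all genes. 1 of 5, *Vdr*, was lower without overlap, against 6.3% of all genes, and 0 were higher, against 5.92%. In LMPPs by reads on *Pcgf1* exons 2 to 7, 2 of 5 were called higher, against 10.1% of all genes tested (7.08% lower, 17.2% in either direction). 3 of 5 were higher and 0 lower without overlap, against 26.7% and 29.9% of all genes.

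Stromal transcript moved with 3 of the 4 receptor genes that were higher without overlap in IdHPCs. The summed stromal markers had their lowest level in control 2, then control 1, *Pcgf1*-KO 2 and *Pcgf1*-KO 1, the order of *Rxra*, *Rarg* and *Pparg*, and their ratio of means was 1.91. Of the 20 markers, 18 were tested, 16 of them higher without overlap, against 25.6% of all genes, and 2 called higher, *Col1a2* and *Sparc*, against 0.269%. Per 1000 CPM of these markers, *Rxra* was at 1.01 and 0.594 CPM in control and 1.0 and 1.04 CPM in *Pcgf1*-KO IdHPCs, so that the groups overlapped. For *Rarg* the corresponding values were 5.16 and 5.16 against 3.94 and 4.19 CPM, lower in *Pcgf1*-KO. *Pparg* was at 0.288 and 0.226 against 0.329 and 0.319 CPM, and stayed higher in *Pcgf1*-KO without overlap. *Nr1h3*, which had another order (control 1 lowest, *Pcgf1*-KO 2 highest), was at 0.089 and 0.203 against 0.128 and 0.215 CPM, which overlapped. Of the 6 progenitor markers in IdHPCs, *Cd34* (0.97) and *Ly6a* (0.87) were higher without overlap, against 25.6% of all genes. *Ptprc* (-0.64) and *Il7r* (-0.47) were lower without overlap, against 21.3%, and limma called 0 of the 6. The part of stromal transcript and of the progenitor markers in these results was not tested.

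In LMPPs the stromal markers summed to only 43.5 and 46.7 CPM with and 67.7 and 56.8 CPM without reads on *Pcgf1* exons 2 to 7. Of this, *Pdgfrb* made up 35.1, 35.8, 56.8 and 48.8 CPM, and the other 19 markers together 8.41, 11.0, 10.8 and 8.02 CPM, with *Dcn* and *Lum* at 0 and *Col1a1* at 0.230 CPM or less. *Pdgfrb* was the 1 of 6 markers tested that was called, higher by 0.56. Mature myeloid markers differed there: 6 of the 10 tested, *Prtn3*, *Lyz2*, *Itgam*, *Csf1r*, *Emr1* and *Cd68*, were called lower in the libraries in which *Rxra* was higher, where 7.08% of all genes were called lower and 10.1% higher. The sum of all 14 was 2685 and 2650 CPM with and 2275 and 2344 CPM without reads on *Pcgf1* exons 2 to 7, most of it *Mpo*. Of the progenitor markers, *Kit* was called higher and *Ly6a* and *Il7r* lower, and 7 erythroid markers summed to 2.58 and 3.77 against 5.18 and 7.65 CPM, with *Epor*, 1 of 2 tested, called higher (1.13). The 8 B cell markers summed to 25.4 and 19.5 CPM with and 15.0 and 15.9 CPM without such reads, and *Blnk*, 1 of 2 tested, was called lower (-1.48 on log2(CPM + 1)). The part of these cell types in the *Rxra* difference was not tested.

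The 5 genes most like *Rxra* over the 8 libraries, each centred on its own table, were *Plscr4* (a phospholipid scramblase family gene, Pearson's r = 0.993), *Zfp651* (a zinc finger gene, 0.989), *Lrfn4* (a leucine-rich repeat adhesion gene, 0.983), *Fert2* (the tyrosine kinase FER, 0.980) and *Ptk7* (a receptor of planar polarity signaling, 0.980), of 10866 genes compared. *Plscr4* had 1.62 and 0.688 CPM in control and 3.97 and 2.82 CPM in *Pcgf1*-KO IdHPCs. In LMPPs it had 1.70 and 2.33 CPM with and 4.78 and 5.22 CPM without reads on *Pcgf1* exons 2 to 7. Of the other receptor genes, *Rarg* ranked 28 with r = 0.955, *Vdr* had 0.695, *Rara* -0.14 and *Rxrb* -0.53. The 8 points share library depth and cell type makeup with each other, and these values describe only these libraries.

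Genes around the receptors were taken from lists of other nuclear receptors, retinoid metabolism, ligand enzymes, cofactors and target genes. In IdHPCs limma called 1 of the 80 genes tested, the receptors included (1.25%, against 0.53% of all genes): *Tgm2*, which encodes the retinoic acid inducible transglutaminase 2. *Tgm2* was at 7.44 and 33.5 CPM in control and 0.562 and 0.518 CPM in *Pcgf1*-KO IdHPCs. The controls were far apart but both above both *Pcgf1*-KO libraries, and the gene fell by 3.47 on the log2(CPM + 1) scale, with an adjusted p = 0.0249 by limma with Benjamini-Hochberg adjustment. The call was lost without the exon at the 3′ end (-3.15, adjusted p = 0.293 by limma) and without the filter on low values (adjusted p = 0.207).

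The other genes of these lists in IdHPCs are given as values. Of 19 other nuclear receptors tested, *Nr4a1*, an RXR partner induced by many signals, was at 10.4 and 22.8 CPM in control and 2.21 and 4.09 CPM in *Pcgf1*-KO IdHPCs, a difference of -2.03 with an adjusted p = 0.0516 by limma with Benjamini-Hochberg adjustment, and it was called in 9 of 16 alternative settings, exactTest of edgeR among them. The differences of *Nr2c2* and the clock gene *Nr1d1* were -0.47 and 0.46, but -0.07 and 0.18 without *Pcgf1*-KO 2. Of 8 genes of retinoid metabolism, *Dhrs3*, which reduces retinal, differed by 0.74, *Rdh11* by -0.57 and *Adh5* by 0.15. *Dhrs3* was 0.40 without control 1 and 1.08 without control 2. *Adh5* was 0.06 without *Pcgf1*-KO 2 and 0.23 without *Pcgf1*-KO 1.

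Among LXR targets, the desaturase gene *Scd1* differed by 1.18, the phospholipid transfer gene *Pltp* by 1.14 and *Scd2* by -0.31 (-0.13 without *Pcgf1*-KO 2). *Scd1* was at 3.0 and 6.10 CPM in control and 11.6 and 10.6 CPM in *Pcgf1*-KO IdHPCs, and its groups did not overlap. Among PPAR targets, *Lpl* (lipoprotein lipase) differed by 1.09, the lipid droplet gene *Plin2* by 0.77 and *Angptl4* by 0.50. *Angptl4* differed by only 0.08 without control 2, and *Lpl* by 0.62 without *Pcgf1*-KO 1. Of the 9 PPAR targets tested, 6 were higher without overlap, against 25.6% of all genes. Their median was 0.50, but 0.33 without control 2 and 0.30 without *Pcgf1*-KO 1. *Lpl* (15.4 and 11.0 against 40.1 and 20.6 CPM) and *Pltp* (24.3 and 16.3 against 52.2 and 39.2 CPM) had the library order of the stromal markers, as did *Angptl4*, *Fabp4* and the VDR target *Spp1*, and the part of stromal transcript was not tested. Among VDR targets, *Spp1* (osteopontin) differed by 0.89, *Thbd* by -0.56 and *Cdkn1a* (the cell cycle inhibitor p21) by 0.20. In LXR, PPAR and VDR targets none was called by limma, against 0.53% of all genes. At an unadjusted p under 0.05, 2 of 10, 2 of 9 and 1 of 3 were higher, against 9.17% of all genes. By exactTest of edgeR *Scd1*, *Pltp*, *Lpl* and *Spp1* were called higher, against 3.67% of all genes (1.3% lower).

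The lower cofactor values in IdHPCs rested mostly on 1 library. The 11 coactivators tested had a median difference of -0.46 and the 9 corepressors of -0.49. Of each, 5 were lower without overlap, against 21.3% of all genes. By limma 0 were called, against 0.53% of all genes, and by exactTest of edgeR 0, against 3.67% higher and 1.3% lower. At an unadjusted p under 0.05, 1 coactivator and 2 corepressors were lower, against 5.33% of all genes. Without *Pcgf1*-KO 2 the medians were -0.07 and -0.12. *Ep300* was at 87.5 and 94.5 CPM in control and 73.2 and 36.5 CPM in *Pcgf1*-KO IdHPCs. *Nrip1*, a corepressor that is itself induced by retinoic acid, was at 25.1 and 28.3 against 23.1 and 4.61 CPM. The lowest values of *Ep300* and *Nrip1* were those of *Pcgf1*-KO 2. This library had the largest share of reads on 3′ exons, 29.1% against 23.9% to 25.6% in the others. It also had the largest sum of 8 B cell markers, 189 against 30.9 to 92.1 CPM. The part of these reads and markers was not tested. The differences of *Crebbp*, *Ncoa2*, *Tbl1x* and *Ncor1* were -0.66, -0.56, -0.66 and -0.50. *Ncor1* was low in both *Pcgf1*-KO libraries, at 226 and 203 CPM against 279 and 331 CPM in control.

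In LMPPs by reads on *Pcgf1* exons 2 to 7, 18 of the 81 tested genes of these lists, *Rxra* and *Rara* included, were called, 22.2% against 17.2% of all genes. Of 10 LXR targets tested, 4 were called higher and 0 lower, against 10.1% and 7.08% of all genes, with a median of 0.21 against -0.02. *Scd1* was at 2.21 and 2.81 CPM with and 21.3 and 17.6 CPM without such reads, a difference of 2.54 ± 0.16 (SE) with no overlap. *Abcg1*, which exports cholesterol, differed by 1.08 ± 0.10 from 19.3 and 20.6 to 45.1 and 41.5 CPM. *Scd2* (0.44) and *Mylip* (0.39), which marks the LDL receptor for degradation, were the others, called in 14 and 8 of 16 alternative settings. *Scd2* lost its call without the library labelled control 2 (0.37), and *Mylip* without that library (0.32), without *Pcgf1*-KO 1 (0.29) and without *Pcgf1*-KO 2 (0.45).

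Targets of the other partners were mixed there. Of 6 RAR targets tested, *Tgm2* (0.96) was called higher and *Cd38* (-0.85) lower. *Cd38* had at most 1.18 CPM and lost its call without any 1 of the 4 libraries (-0.89 to -0.80) and by DESeq2 (-2.54). Of 6 PPAR targets, *Lpl* (-1.70) and the fatty acid oxidation gene *Acadl* (-0.94) were called lower. Of 4 VDR targets, *Spp1* (-1.40) and *Cdkn1a* (-1.04) were called lower. Of all genes, 10.1% were called higher and 7.08% lower. The mature myeloid markers *Lyz2* (-1.13), *Itgam* (-1.28), *Csf1r* (-1.17) and *Cd68* (-1.36) were lower in the same libraries as *Lpl*, *Spp1* and *Cdkn1a*, and their part was not tested.

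Of 21 other nuclear receptors tested in LMPPs, 3 were called, all higher, a share near the 10.1% of all genes called higher. *Pgr*, the progesterone receptor gene, was at 12.1 and 12.5 CPM with and 34.8 and 27.6 CPM without reads on *Pcgf1* exons 2 to 7, a difference of 1.27. *Nr2f6* differed by 0.53 and the thyroid hormone receptor gene *Thra*, an RXR partner, by 0.42, and *Thra* lost its call without the library labelled *Pcgf1*-KO 2 (0.35). The coactivators *Ppargc1b* (0.71) and *Ncoa1* (0.53) were called higher of 11 tested. *Cyp46a1*, which makes an oxysterol, was called higher (0.87) of 3 ligand enzymes and lost its call without control 2 (0.81), without *Pcgf1*-KO 2 (0.94) and by DESeq2 (2.0). Of 9 corepressors 0 were called by limma, and 0 had an unadjusted p under 0.05, against 15.8% of all genes higher and 13.6% lower.

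**Figure D5:**
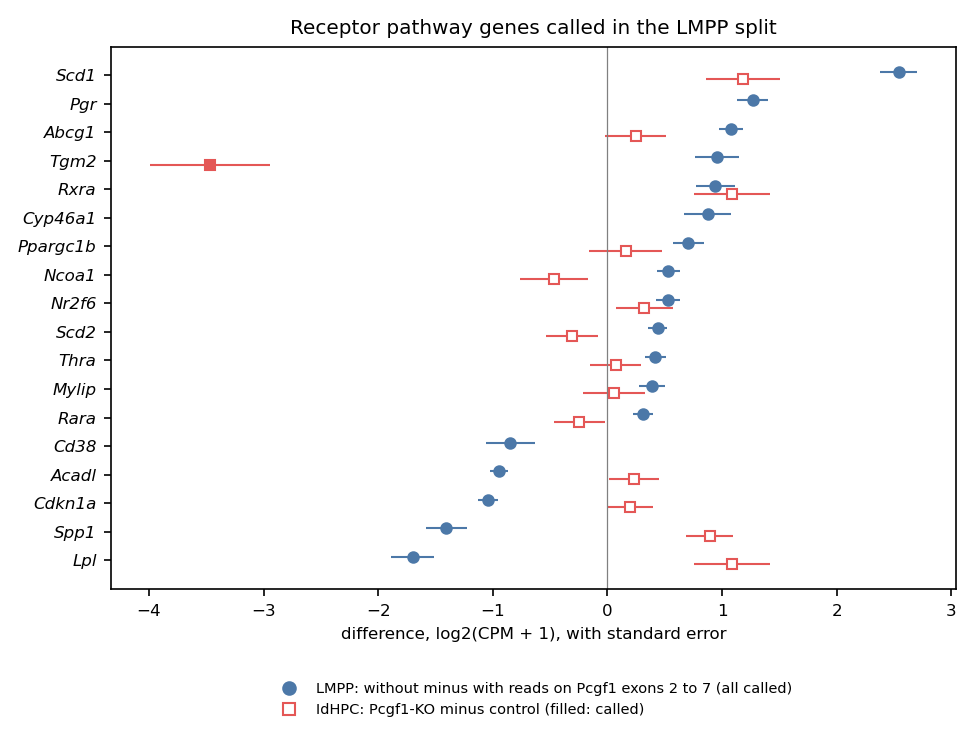
Differences on log2(CPM + 1) with standard errors of the 18 receptor pathway genes called in the LMPP comparison by reads on *Pcgf1* exons 2 to 7 (blue circles), and of the 15 of them that were tested in IdHPCs (red squares, filled where called). *Rxra* and *Scd1* lie to the right in both cell types, and *Tgm2* is the gene called in both, at -3.47 in IdHPCs and 0.96 in LMPPs.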

How the data were processed

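RNA-seq of IdHPCs and LMPPs was analysed in 8 libraries. The authors sequenced poly(A) RNA and deposited CPM values (read counts scaled to the library total) for 284716 exons in each of 2 tables, aligned to mm9. The paper names HISAT2, and the submitters' processing notes TopHat2 2.0.13 and edgeR. Exons equal to the exon before them in all libraries (106425) were counted once, the rest were summed per symbol, and the authors' denominator was kept. Of all values, 100% were whole multiples of 1 read, within 1e-06 reads. The tables were normalized apart and tested apart: limma 3.58.1 (R 4.3.3) was fitted to log2(CPM + 1) values, its prior variance following the mean level, with Benjamini-Hochberg adjustment over genes with a CPM of at least 1 in 1 of 4 libraries. On the recovered reads, exactTest and the quasi-likelihood test of edgeR 4.0.16 and DESeq2 1.42.0 were alternatives, beside other pseudocounts, filters, scalings, exon sums and left-out libraries. In simulated IdHPC and LMPP data of 12273 and 12153 genes, limma recovered 200 of 200 changed genes, with 15 false calls in each. These changes were set at 4-fold, with a fixed spread between libraries (dispersion of 0.02). How often smaller or noisier changes would be called was not tested.

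Groups follow the labels, beside the split by reads on *Pcgf1* exons 2 to 7. A read spanning exons may be counted more than once. Exon lengths and positions are those of NCBIM37 (mm9). Named were the 9 receptors, *Pcgf1*, *Nr1h2* as the other LXR gene, and called genes of the pathway lists. Also named were up to 3 genes per list with the largest IdHPC difference at a mean CPM of 5 or more, and the 5 genes most like *Rxra*. One listed gene is not reported here and is left out of the list counts. Members and lists were chosen with earlier results of these data known. The 95% intervals come from limma and carry the spread between libraries, and the floor of 3 reads covers counting error only. Summed CPM of 8 B cell markers was 15.0 to 189 and of 7 erythroid markers 2.39 to 7.65 over all libraries.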

Additional observations from a re-analysis of the deposited data

Results flagged for a closer look

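Of the genes named in the report, 10 had libraries that stood apart in opposite directions in the 2 cell types, *Pcgf1*-KO against control in IdHPCs and without against with reads on *Pcgf1* exons 2 to 7 in LMPPs. The difference between the cell types was not tested, since the tables were normalized apart. *Tgm2* was at -3.47 in IdHPCs and 0.96 in LMPPs on log2(CPM + 1), called in both. *Lpl* was at 1.09 and -1.70, *Spp1* at 0.89 and -1.40, *Acadl* at 0.23 and -0.94, *Cdkn1a* at 0.20 and -1.04, and *Scd2* at -0.31 and 0.44, each called by limma in LMPPs but not in IdHPCs. In IdHPCs *Acadl* had 102 and 135 CPM in control against 136 and 140 CPM in *Pcgf1*-KO. *Scd2* was only -0.13 there without *Pcgf1*-KO 2. *Pltp* (1.14 and -0.47), *Thbd* (-0.56 and 0.20), *Rdh11* (-0.57 and 0.19) and *Adh5* (0.15 and -0.19) were called by limma in neither. *Nr4a1* was at -2.03 in IdHPCs and, by label, at 0.36 in LMPPs, called by limma in neither, and exactTest of edgeR called *Nr4a1* and *Pltp* in IdHPCs. *Pparg* was at 0.78 in IdHPCs and, by label and under the filter on low values, at -0.37 in LMPPs, from 1 to 10 reads a library. With 2 libraries on each side, 25.6% of all IdHPC genes were higher and 21.3% lower without overlap, and 26.7% and 29.9% in LMPPs.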

How the results depend on the processing

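Each comparison was repeated under 16 alternative settings. The direction of *Rxra* held in all of them in IdHPCs (0.61 to 1.47) and in LMPPs by reads on *Pcgf1* exons 2 to 7 (0.75 to 1.13). With the replicate block, *Rxra* in IdHPCs was called at the same 1.09, with an adjusted p = 0.0219 by limma against up to 0.99996 over its settings. Replicate numbers share no stated source, and deviations of same-numbered libraries correlated by 0.15 in IdHPCs and 0.71 in LMPPs over 2 pairs.

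Genes called in IdHPCs numbered 65 (50.8% higher), but 0 with no filter, 190 (66.8% higher) with median ratio scaling, 239 (70.7% higher) with TMM scaling, 610 by exactTest, 124 by the quasi-likelihood test, 497 by DESeq2, 3 without the 3′ exon, 669 with the replicate block and 14 to 825 with 1 library left out (14 without control 2, 825 without *Pcgf1*-KO 1, 230 without *Pcgf1*-KO 2). By label, LMPPs had 0 called and 3 with the replicate block. By reads on *Pcgf1* exons 2 to 7 they had 2089, but 1098 without the 3′ exon and 1291 (without control 2) to 1947 with 1 library left out.

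By label, *Rxra* in LMPPs turned from 0.15 with 1 library left out (-0.43 to 0.74), as did *Rara* (-0.20 to 0.19) and *Rarg* (-0.23 to 0.20), *Rara* also with all listed exons (0.0018). *Rxrb* turned with 1 library left out in IdHPCs (-0.16 to 0.032) and in LMPPs by label (-0.012 to 0.015), there also without the 3′ exon (-0.0066). By reads on *Pcgf1* exons 2 to 7, *Rxrb* was 0.0071 and 0.0082 with the other scalings, 0.0062 by both edgeR tests, 0.0053 by DESeq2 and -0.018 to 0.0015 with 1 library left out, and *Vdr* -0.071 to 0.16 with 1 library left out. The cause was not tested. List medians with 1 library left out were added after seeing the data. Counts of 0 to 2 reads limit *Rxrg*, and of 1 to 14 reads *Rarb*.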
